A study of Mus musculus with 28 samples.

Results

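Matrix metalloproteases (Mmps), Adamts proteases, the related Adamts-like proteins and the tissue inhibitors of metalloproteases (Timps) were followed through the reprogramming of mouse fibroblasts to neural stem cells. The members were all genes whose symbol begins with Mmp, Adamts, Adamtsl or Timp and a number, which gave 44 of the 17295 genes in the deposited expression table. They comprised 17 Mmp genes, 19 Adamts genes, 4 Adamts-like genes and 4 Timp genes. Of these, 39 had a mean value of at least 10 over all libraries and were tested. Mmp8, Mmp27, Mmp28, Adamts13 and Adamts18 did not reach that level, and only their values are given.

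Mmps are zinc-dependent proteases that cut collagens, basement membrane proteins and other matrix proteins outside the cell. Most are made as inactive proenzymes and are activated by proteolysis, and the membrane-type members are anchored at the cell surface, where Mmp14 activates pro-Mmp2. Adamts proteases are secreted relatives that include the proteoglycanases, which cut aggrecan, versican and brevican, and the procollagen N-proteinases, which trim fibrillar procollagens. Adamts-like proteins resemble them but lack the protease domain. Timps bind the active site of metalloproteases and block it, and Timp3 also inhibits several Adam and Adamts proteases. In brain, whose matrix is rich in proteoglycans of the lectican family, these enzymes remodel the surroundings of neural stem cells and neurons.

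The data were RNA-seq expression values of 28 libraries in 14 groups of 2. Induced neural stem cells (miNSC) made up 10 groups, which arose from cells transduced with lentiviruses for M2rtTA and for doxycycline-inducible transcription factors. Every cocktail contained F, an engineered Sox17 named eSox17FNV, together with factors the labels abbreviate as B, K and M. Doxycycline was given for 18 days, colonies were picked at day 20 and then expanded on Matrigel in medium with bFGF and EGF. From embryonic fibroblasts of ICR mice came BKF and KF lines, and from embryonic fibroblasts of Sox2-GFP mice came BKF, KF and KMF lines. From tail-tip fibroblasts of Sox2-GFP mice of 1.0 year came BKF and KMF lines and a 4F line (B, K, M and F) sampled at passage 8 and at passage 18. A further 4F line came from Sox2-GFP ear fibroblasts of 1.0 year. The cells without added factors were neural stem cells (NSC) of Sox2-GFP mice of 2.5 years, sampled at passage 2 and passage 5, and 3 groups of Sox2-GFP fibroblasts, from skin at 2.5 years, from tail tip at 2.5 years and from tail tip at 1.0 year. Embryonic, ear and ICR fibroblasts were not analysed here, so most miNSC lines had no starting cells to be set against. The labels do not say whether 2 replicates of a line came from separate colonies or cultures, and p-values then measure only the spread between these libraries.

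The marker genes matched the labels. Summed values of 7 fibroblast markers were 84 to 967 in miNSC, 572 to 1316 in NSC and 100510 to 154256 in fibroblasts. Summed values of 7 neural stem and progenitor markers were 90828 to 172084 in miNSC and 522 to 826 in fibroblasts, with Sox2, Olig1 and Olig2 at 0 in every fibroblast library. Smooth muscle markers were also high in fibroblasts, 4 genes summing to 61 to 726 in miNSC and 48862 to 57259 in fibroblasts. So were 6 macrophage and leukocyte markers, with sums of 11 to 215 in miNSC, 11 to 24 in NSC and 561 to 4701 in fibroblasts, and all 5 of them that were tested were called lower in miNSC than in fibroblasts. The part of either marker list in the member values was not tested. Library totals differed by 0.051%, from 15563679 to 15571626, and between 8.55% and 11.08% of genes were listed at 0. The scale had been equalised before deposit, so read depth is unknown and a value of 0 carries no detection limit. High values recur exactly between libraries, and an SD of 0 there is no measure of precision. The values are not known to be per transcript length, so levels are compared between groups for one gene and never between genes. Fewer cells of a type and less RNA per cell cannot be told apart in these bulk libraries.

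All 44 gene identifiers were found in the GENCODE M21 annotation of GRCm38 (mm10), and 11 of the members lie in runs of neighbours. Mmp13, Mmp12, Mmp1b, Mmp3, Mmp10, Mmp8 and Mmp27 occupy 309.4 kb of chromosome 9, from 7272514 to 7581885. Adamts1 and Adamts5 share 108.0 kb of chromosome 16, from 85793827 to 85901828, and Adamts15 and Adamts8 share 64.7 kb of chromosome 9, from 30899155 to 30963838. The proximal promoters of the chromosome 9 Mmp genes were read because the 4 members listed at 0 in every miNSC library, Mmp1b, Mmp8, Mmp10 and Mmp27, all lie in this run. The RefSeq promoter table (GRCm38.p6) held 29 of the 44 members, and the 250 bases before each start were searched on both strands for TGANTCA, the AP-1 element, where Fos and Jun proteins bind. The letters occurred in 6.75% of all 32851 promoters, in 5 of the 8 promoters listed for the 7 genes of the chromosome 9 Mmp run and in 0 of the 23 promoters listed for 22 other members. In Mmp12 they stood before the second of the starts RefSeq lists, and that promoter is not shown. The 120 bases before the start of the other 4 genes follow, 5′ to 3′ on the gene's own strand, with TGANTCA in capitals. They lie at chr9:7272394-7272513 on the plus strand (Mmp13), chr9:7388027-7388146 on the minus strand (Mmp1b), chr9:7445702-7445821 on the plus strand (Mmp3) and chr9:7502222-7502341 on the plus strand (Mmp10).
Mmp13: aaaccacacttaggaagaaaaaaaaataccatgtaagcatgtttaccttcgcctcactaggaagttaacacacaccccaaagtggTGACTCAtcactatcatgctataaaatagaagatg
Mmp1b: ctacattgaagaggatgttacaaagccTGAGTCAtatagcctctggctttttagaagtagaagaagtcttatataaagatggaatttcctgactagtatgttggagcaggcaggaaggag
Mmp3: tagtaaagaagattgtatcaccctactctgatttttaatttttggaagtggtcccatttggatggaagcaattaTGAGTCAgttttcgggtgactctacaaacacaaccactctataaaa
Mmp10: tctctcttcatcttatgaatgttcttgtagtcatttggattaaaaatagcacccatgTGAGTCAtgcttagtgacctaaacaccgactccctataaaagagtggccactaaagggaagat
The motif CATTGTN, to which Sox proteins bind, occurred in 10.7% of all promoters and in 2 of the 31 member promoters, 1 of the pair listed for Mmp12 and 1 of the pair listed for Mmp23. Of the members listed at 0 in every miNSC library, Mmp1b and Mmp10 held TGANTCA and Mmp8 and Mmp27 did not. Such matches describe the letters in the window and say nothing of binding in these cells.

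The members were compared first between all miNSC and all fibroblasts, a contrast in which each group weighed the same. Of the 39 tested members, 12 were higher and 23 lower in miNSC at an adjusted p under 0.05 (limma, Benjamini-Hochberg over 16275 genes), and 4 were not called. Of the tested members 89.7% were thus called, 30.8% higher and 59.0% lower, beside 76.5% of all tested genes, 42.8% higher and 33.7% lower. The median log2 fold change was −2.42 over the members and 0.10 over all tested genes. Adamts3, Adamts6, Adamts14 and Adamts16 were the members not called. By role, all 5 tested collagenases and stromelysins, both gelatinases, the further Mmps Mmp11, Mmp19 and Mmp23 and the 4 Adamts-like genes were called lower. Of the proteoglycanases 5 of 7 were called higher, and of the other Adamts proteases 4 of the 7 tested. For 8 of the lower members, Mmp1b, Mmp3, Mmp9, Mmp10, Mmp23, Adamtsl4, Adamtsl5 and Timp1, the mean over miNSC and NSC was under 10, so they were tested only through the fibroblast libraries and their direction was set by that filter. The same holds in reverse for Adamts8, Adamts17, Adamts20 and Timp4, with a mean under 10 in fibroblasts, and the counts by role are a description. In these libraries strain, donor age and tissue differed along with reprogramming and cannot be told apart from it.

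**Figure D1:**
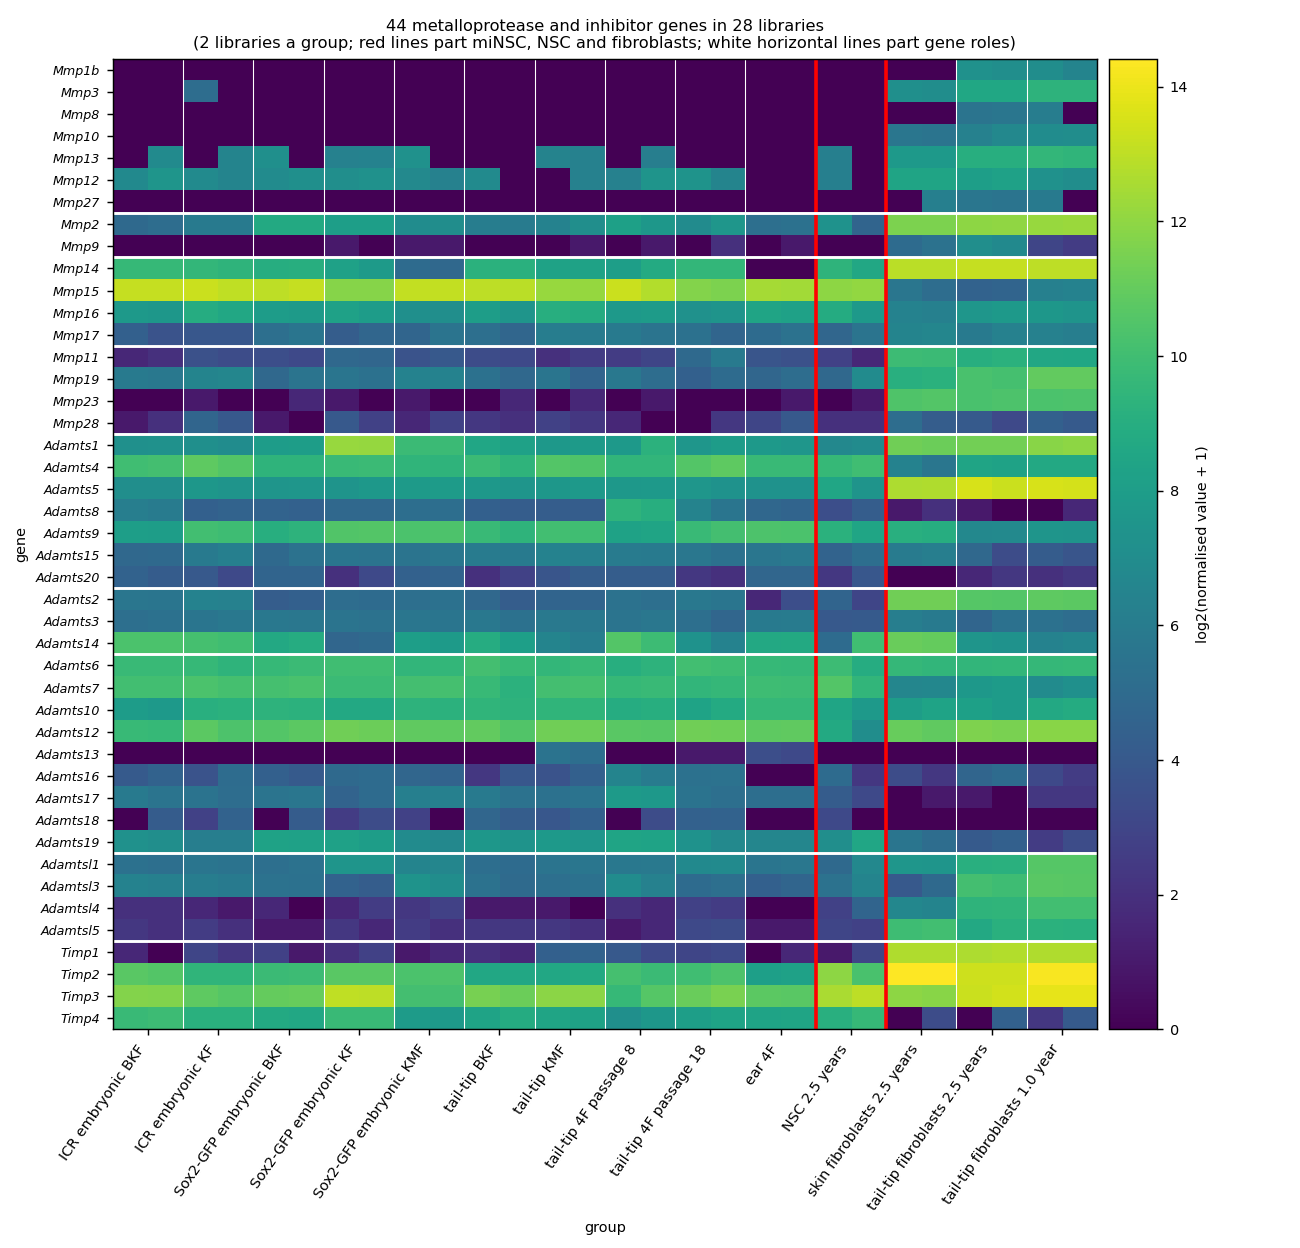
Normalised values of the 44 members on a log2(value + 1) colour scale, genes in rows ordered by role and the 28 libraries in columns, with red lines between miNSC, NSC and fibroblasts. Mmp3, Mmp10, Mmp23, Adamtsl4, Adamtsl5 and Timp1 are dark (low) in the 20 miNSC libraries, apart from Mmp3 at 35 in 1 ICR KF library, and lighter (higher) in the 6 fibroblast libraries, while Mmp15 and Timp4 show the opposite.

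The collagenases and stromelysins cut fibrillar collagens and many other matrix proteins, and Mmp12 is the elastase named after macrophages. Mmp3, stromelysin-1, was at 0 in 19 of 20 miNSC libraries and at 35 in 1 ICR KF library, against a lowest, median and highest value of 134, 385.5 and 639 in fibroblasts. On the log2(value + 1) scale Mmp3 fell by 8.09 ± 0.44 (SE; limma adjusted p = 3.28e-11). It was tested only through the fibroblast libraries, so the filter on low values favoured this direction. Mmp10, stromelysin-2, was listed at 0 in all miNSC and NSC libraries, against 45 to 132 in fibroblasts. The stromelysins were thus read in every fibroblast library and in 1 library of any neural stem cell.

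Mmp13, the main interstitial collagenase of mouse, had a lowest, median and highest value of 0, 0 and 154 in miNSC, against 213, 521 and 747 in fibroblasts. It fell by 5.78 ± 1.38 (SE; limma adjusted p = 0.00116), and no miNSC library reached the lowest fibroblast library. Mmp1b, a rodent paralogue of interstitial collagenase, was at 0 in all miNSC, NSC and skin fibroblast libraries and at 90 to 153 in the 4 tail-tip fibroblast libraries. Mmp12 was at 0, 111 and 182 in miNSC (lowest, median and highest) and at 134, 287 and 346 in fibroblasts, with overlap. The neutrophil collagenase Mmp8 and Mmp27 were at 0 in all 20 miNSC libraries and reached at most 67 and 74 in fibroblasts. In the 7 genes of the chromosome 9 run every value above 0 was 35 or more. A gap of that size lay between libraries of 1 line in several cases, as with Mmp13 at 145 and 0 in the Sox2-GFP BKF line.

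Mmp2 and Mmp9 are the gelatinases, which degrade denatured collagen and basement membrane collagen. Mmp2 was at 30, 125 and 428 in miNSC (lowest, median and highest), against 3000, 4066.5 and 4928 in fibroblasts. Even the highest line, Sox2-GFP BKF at 428 and 424, was far below every fibroblast library. Mmp9 was at 0 to 3 in miNSC and at 5 to 138 in fibroblasts, where the macrophage and leukocyte markers were also high.

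The membrane-type enzymes Mmp14 and Mmp15 were opposed. Mmp14, on chromosome 14, was at 0, 482.5 and 810 in miNSC (lowest, median and highest), against 7802, 8217 and 8896 in fibroblasts. It fell by 5.35 ± 0.10 (SE; limma adjusted p = 9.78e-18), and by 4.50 without the ear line, in which both libraries were at 0. Mmp15, on chromosome 8, was at 3088, 7898 and 9708 in miNSC, against 22, 42.5 and 82 in fibroblasts. Its mean was 6818 ± 2328 in miNSC (SD, n = 20) and 48.2 ± 25.9 in fibroblasts (SD, n = 6), a log2 fold change of 7.20 ± 0.07 (SE; limma adjusted p = 2.72e-21). The 2 ranges did not overlap for either gene. Mmp16 had a median of 242 in miNSC and 181.5 in fibroblasts, and the glycosylphosphatidylinositol-anchored Mmp17 a median of 35 in miNSC and 79 in fibroblasts, both called with overlap.

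**Figure D2:**
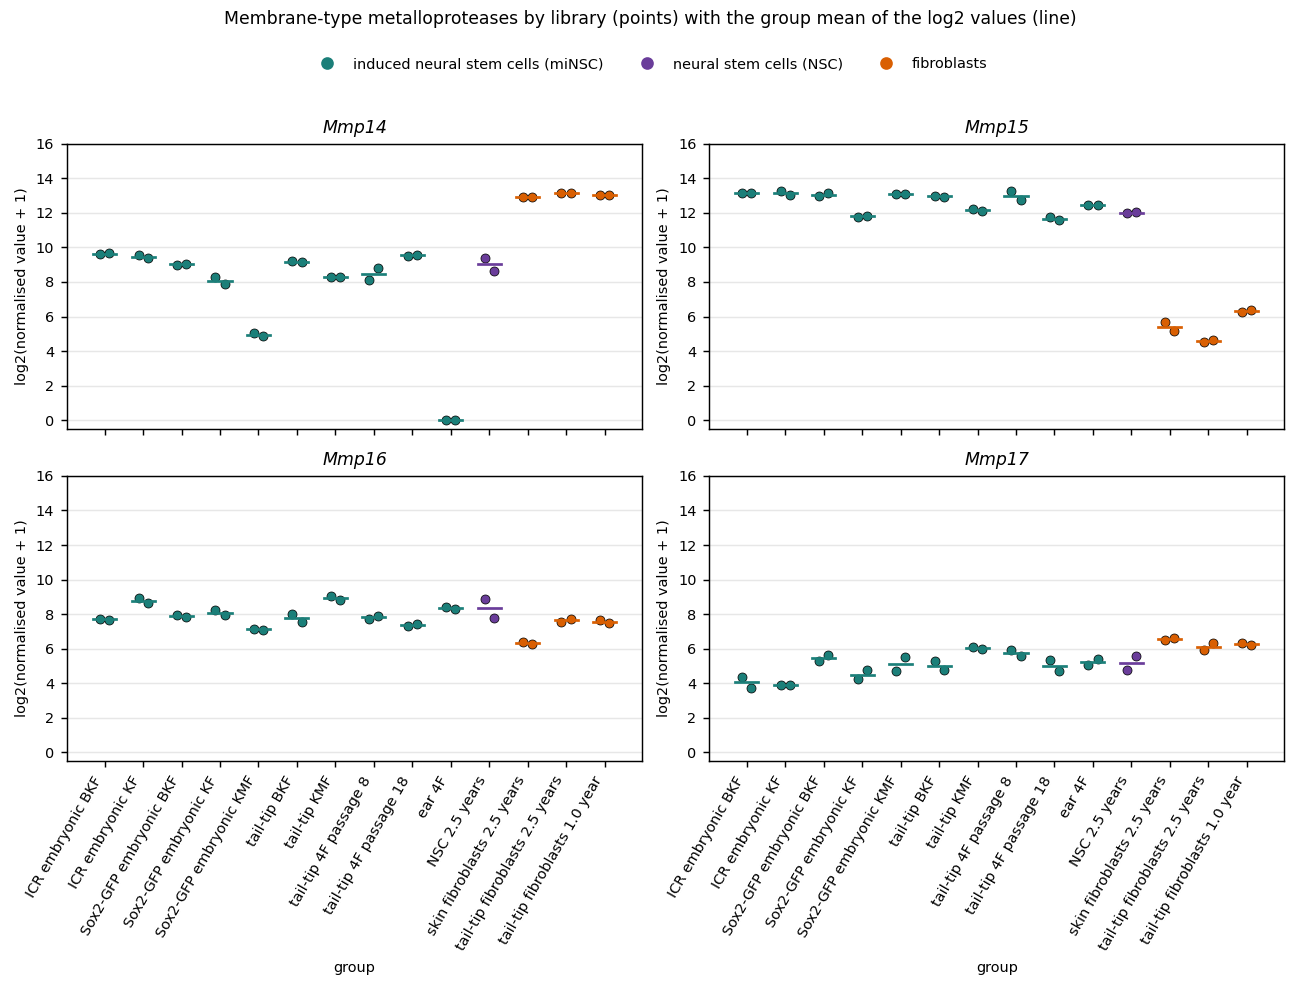
Log2(normalised value + 1) of Mmp14, Mmp15, Mmp16 and Mmp17 by group, miNSC lines left of NSC and fibroblasts; points are libraries and short lines the group mean of the log2 values. Mmp15 has values of 3088 or above in every miNSC library and of 82 or below in every fibroblast library, and Mmp14 of 810 or below in miNSC, with the ear line at 0, and of 7802 or above in fibroblasts.

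Of the other Mmps, Mmp23, a membrane-bound enzyme released by cleavage of its own prodomain, was at 0 to 2 in miNSC and at 1248 to 1511 in fibroblasts. Its log2 fold change was −9.91 ± 0.32 (SE; limma adjusted p = 2.49e-14). Mmp23 was tested only through the fibroblast libraries, so the filter on low values favoured its fall. Mmp11, known as stromelysin-3 and expressed by stromal cells, was at 2, 9.5 and 61 in miNSC (lowest, median and highest), against 384, 560.5 and 956 in fibroblasts, a log2 fold change of −5.74 ± 0.17 (SE; limma adjusted p = 5.53e-15). Mmp19 was at 20 to 96 in miNSC and at 536 to 1959 in fibroblasts. All 6 fibroblast libraries exceeded all 20 miNSC libraries in each of these genes. Mmp28 was low throughout, at 0 to 25 in miNSC and at 8 to 34 in fibroblasts.

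Among the proteoglycanases the genes divided. Adamts5, the main aggrecanase of mouse cartilage, was at 136, 188 and 238 in miNSC (lowest, median and highest), against 6466, 10799 and 12122 in fibroblasts. It fell by 5.66 ± 0.10 (SE; limma adjusted p = 8.96e-18) and was among the most even members within miNSC, with a ratio of 1.74 between the highest and lowest group means. Its chromosome 16 neighbour Adamts1 was at 128, 236.5 and 4756 in miNSC, against 2327, 2603.5 and 4005 in fibroblasts. Adamts1 overlapped the fibroblast range in 1 line alone, Sox2-GFP KF. Adamts4, the other aggrecanase, had a median of 901 in miNSC and 323 in fibroblasts without overlap, 650 being the lowest miNSC value and 416 the highest fibroblast value. Adamts9, which cuts versican and aggrecan, had a median of 1001 in miNSC and 179 in fibroblasts, overlapping through the skin cells. Adamts8 was at 18 to 664 in miNSC and at 0 to 3 in fibroblasts. Adamts15 and Adamts20 were also called higher, at medians of 51.5 and 17.5 in miNSC and of 22.5 and 2.5 in fibroblasts.

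Of the procollagen N-proteinases, Adamts2, the principal enzyme for procollagens I and III in skin, was at 2, 35.5 and 83 in miNSC (lowest, median and highest), against 1520, 1816.5 and 2520 in fibroblasts. Its log2 fold change was −5.95 ± 0.22 (SE; limma adjusted p = 1.54e-13). Adamts14, which shares this activity, ran from 26 to 1516 in miNSC and from 82 to 2265 in fibroblasts and was not called. Adamts3 was at 26 to 62 in miNSC and at 25 to 71 in fibroblasts. Of the 3 N-proteinases, Adamts2 alone was called.

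Among the remaining Adamts genes, Adamts7, Adamts10, Adamts17 and Adamts19 were called higher and Adamts12 lower. Adamts7, which cuts the cartilage matrix protein Comp, had a median of 1020 in miNSC and 135 in fibroblasts, and the lowest miNSC value of 618 was above the highest fibroblast value of 244. Adamts19 was at 70 to 344 in miNSC and at 5 to 48 in fibroblasts, and Adamts17 at 23 to 231 in miNSC and at 0 to 4 in fibroblasts. Adamts6 was not called, at 514 to 1096 in miNSC and at 714 to 802 in fibroblasts. Adamts18 was at 0 to 26 in miNSC and at 0 in all fibroblasts. Adamts13, the protease of von Willebrand factor, was at 0 in all fibroblasts and NSC, at 44 and 36 in the tail-tip KMF line, at 10 and 8 in the ear line and at 1 or 0 in the other miNSC libraries.

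Adamts-like proteins bind fibrillin microfibrils in several cases. Adamtsl5 was at 1, 3 and 9 in miNSC (lowest, median and highest), against 414, 576.5 and 1048 in fibroblasts, a log2 fold change of −7.39 ± 0.14 (SE; limma adjusted p = 1.5e-17). Adamtsl4 was at 0 to 6 in miNSC and at 90 to 1076 in fibroblasts, a log2 fold change of −7.21 ± 0.26 (SE; limma adjusted p = 9.86e-14). Both were near 0 in every reprogrammed line. They were tested only through the fibroblast libraries, so the filter on low values favoured their fall. Adamtsl1 was at 32 to 182 in miNSC and at 184 to 1594 in fibroblasts, and Adamtsl3 was at 18 to 166 in miNSC and at 15 to 1698 in fibroblasts. For these genes the 15 and 30 of Adamtsl3 and the 191 and 184 of Adamtsl1 in skin fibroblasts lay near or within the miNSC range.

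The 4 inhibitors did not move as one. Timp1, inducible and secreted by connective tissue cells, was at 0, 3.5 and 22 in miNSC (lowest, median and highest), against 6318, 6575 and 6986 in fibroblasts. It fell by 10.42 ± 0.32 (SE; limma adjusted p = 1.6e-14). Timp1 was tested only through the fibroblast libraries, so the filter on low values favoured its fall. Timp2, which takes part in pro-Mmp2 activation by Mmp14, was at 276, 927.5 and 1724 in miNSC, against 10338, 20138 and 21805 in fibroblasts, a log2 fold change of −4.34 ± 0.15 (SE; limma adjusted p = 8.35e-14). Both ranges were fully apart.

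Timp3, which binds to the matrix, was at 819, 2176 and 8418 in miNSC (lowest, median and highest), against 3734, 10421.5 and 15161 in fibroblasts. It fell by 1.85 ± 0.10 (SE; limma adjusted p = 2.6e-11) and overlapped, since skin fibroblasts at 3953 and 3734 were below the Sox2-GFP KF line at 8418 and 8217. Timp4, the family member best known from brain and heart, was at 144, 341.5 and 928 in miNSC, against 0, 6.5 and 21 in fibroblasts. Its log2 fold change was 6.26 ± 0.49 (SE; limma adjusted p = 4.5e-09), and its ranges did not overlap. Timp4 was tested only through miNSC and NSC libraries, so the filter on low values favoured its rise. The 4 genes thus gave 3 falls of unequal size and 1 rise, with the directions of Timp1 and Timp4 favoured by that filter.

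**Figure D3:**
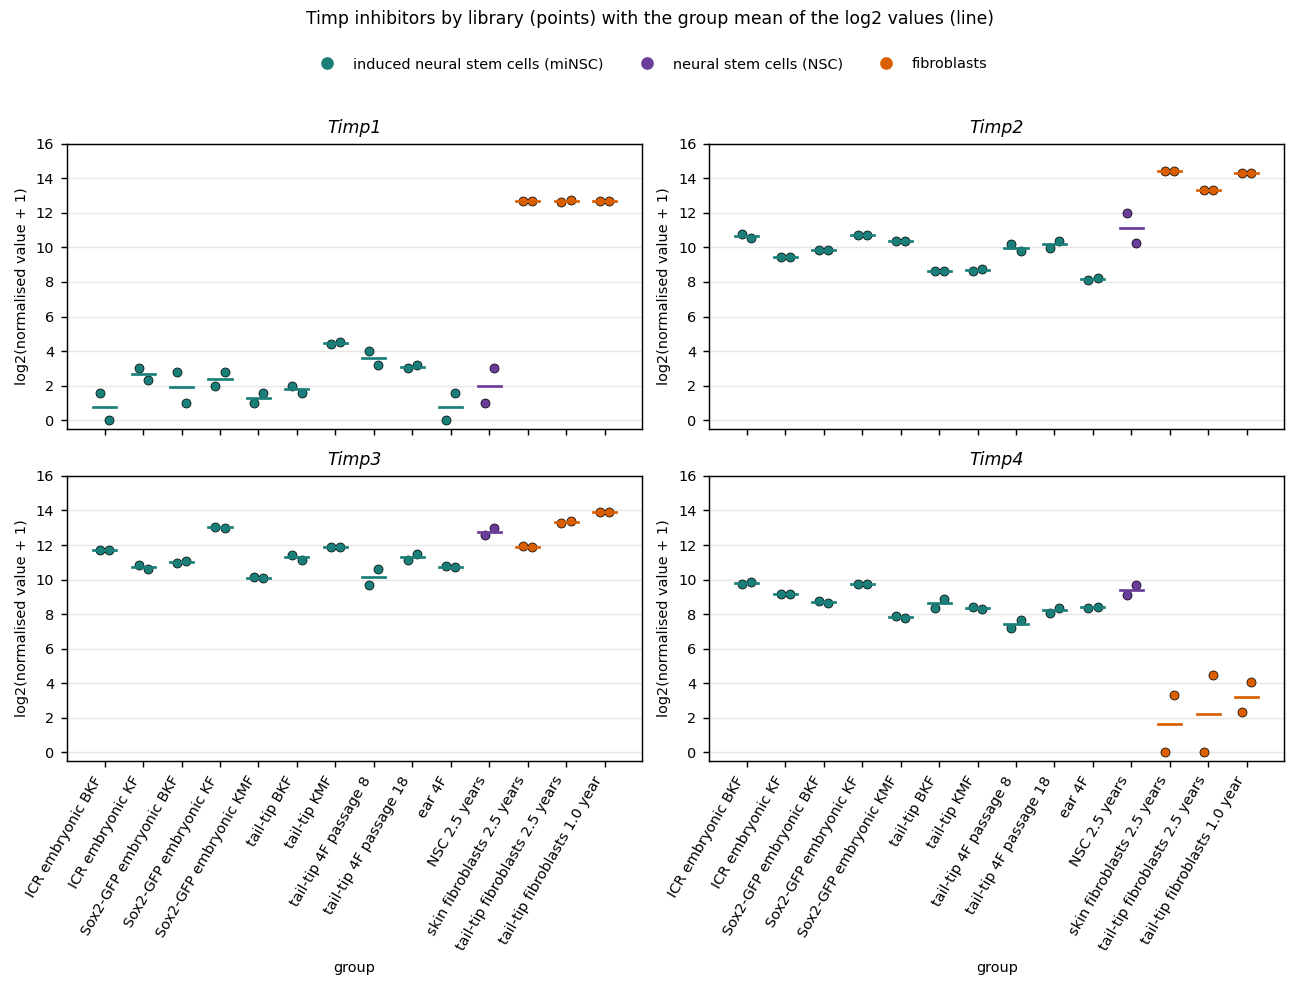
Log2(normalised value + 1) of Timp1, Timp2, Timp3 and Timp4 by group, miNSC lines left of NSC and fibroblasts; points are libraries and short lines the group mean of the log2 values. Timp1 lies at 22 or below in miNSC and at 6318 or above in fibroblasts, Timp4 at 144 or above in miNSC and at 21 or below in fibroblasts, and Timp3 overlaps between the cell types.

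Several members share their locus with another gene, and the labels do not say whether counting used strand. Timp1, Timp3 and Timp4 each lie on the opposite strand within a synapsin gene (Syn1, Syn3 and Syn2). Syn2 was at 703 to 2855 in miNSC and at 0 to 4 in fibroblasts and so moved in the direction of Timp4. Syn1 was at 46 to 222 in miNSC and at 10 to 23 in fibroblasts, against the direction of Timp1, and Syn3 was at 18 to 56 in miNSC and at 12 to 36 in fibroblasts. The part of Syn2 in the Timp4 values was not tested. Mmp1b and Mmp12 overlap each other in part on opposite strands, and Adamts4, Adamts7, Mmp19 and Adamtsl1 each overlap a further gene in part.

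**Figure D4:**
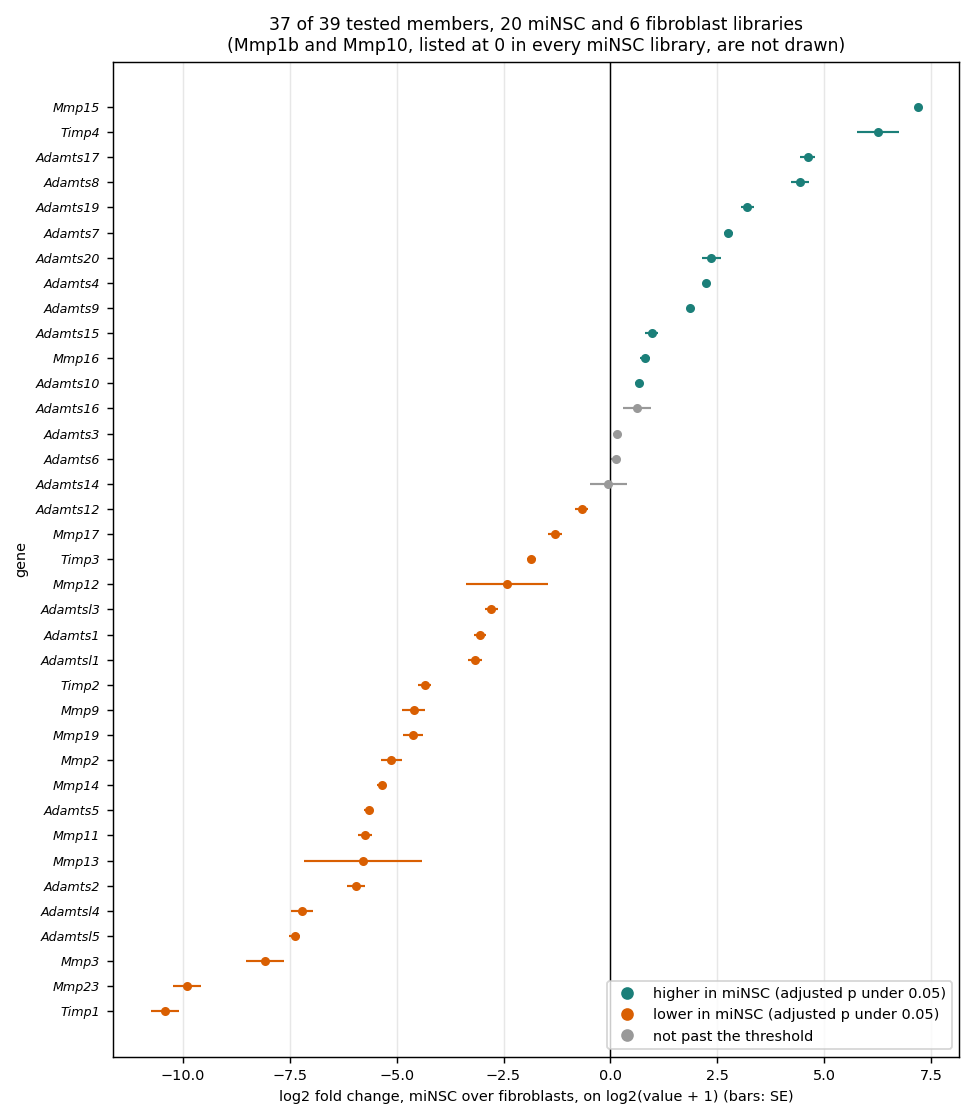
Log2 fold changes of miNSC over fibroblasts on log2(value + 1), with SE bars, for 37 of the 39 tested members; Mmp1b and Mmp10, listed at 0 in every miNSC library, have no fold and are not drawn. Values run from −10.42 for Timp1 to 7.20 for Mmp15, with Adamts3, Adamts6, Adamts14 and Adamts16 not past the threshold.

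Genes that act on these enzymes were read beside them. Of 20 tested genes for activation and control of metalloproteases, 8 were higher and 12 lower in miNSC, with a median log2 fold change of −1.77. Plaur, the receptor that holds urokinase at the cell surface, averaged 0.3 in miNSC and 510 in fibroblasts, a log2 fold change of −8.59 ± 0.13 (SE; limma adjusted p = 1.27e-18). Tfpi2, a serine protease inhibitor that also restrains Mmp activation, was listed at 0 in all miNSC and averaged 774 in fibroblasts. Plaur and Tfpi2 were also at 0 in NSC. Both were thus tested only through the fibroblast libraries, and the filter on low values favoured their fall. Serpine2, an inhibitor of thrombin and plasminogen activators known as protease nexin-1, went the other way, with a log2 fold change of 4.26 ± 0.05 (SE; limma adjusted p = 6.34e-20) and with miNSC values tied at 42158 in several libraries. Pcolce, which enhances procollagen C-proteinase, averaged 372 in miNSC and 9567 in fibroblasts, a log2 fold change of −5.65 ± 0.14 (SE; limma adjusted p = 8.8e-16).

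Among 18 tested matrix substrates 6 were higher and 11 lower, with a median of −1.25. Ncan, the neural lectican neurocan, averaged 8443 in miNSC and was listed at 0 in fibroblasts. Bcan, the brain lectican brevican and a substrate of Adamts4, rose by 10.66 ± 0.17 (SE; limma adjusted p = 1.86e-18). Fbn1, the fibrillin of microfibrils, fell by 6.34 ± 0.12 (SE; limma adjusted p = 2.34e-17), and Comp was listed at 0 in miNSC. Of 14 tested Adam and astacin proteases, 5 were higher and 7 lower. These lists, like the members, moved in both directions.

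The tail-tip lines could be set against tail-tip fibroblasts of the same age, which are their labelled source. Here 11 members were higher and 22 lower of 39, beside 66.0% of all tested genes called (36.7% higher and 29.4% lower). The median log2 fold change was −2.29 over the members and 0.10 over all tested genes. These libraries are also part of the contrast over all miNSC, so the values are not independent of it. Timp3, which overlapped there, was at 819 to 3858 in the 8 tail-tip miNSC libraries, against 15161 in both tail-tip fibroblast libraries, a log2 fold change of −2.72 ± 0.17 (SE; limma adjusted p = 3.6e-10). Adamts8 was at 18 to 664 in tail-tip miNSC and at 0 and 2 in these fibroblasts, with a log2 fold change of 5.15 ± 0.36 (SE; limma adjusted p = 1.84e-09). The log2 fold changes of Timp1, Timp2, Timp4 and Mmp15 were −9.45 ± 0.55, −4.92 ± 0.26, 4.96 ± 0.84 and 6.12 ± 0.12 (SE; limma adjusted p of 1.6e-10, 4.34e-11, 6.41e-05 and 7.31e-17). Of these genes, Timp1 was tested only through fibroblasts, and Timp4, like Adamts8, only through miNSC and NSC. The filter on low values thus favoured the directions of these 3 genes. Mmp13 was called at −7.11 ± 2.34 (SE; limma adjusted p = 0.0136), but not without tail-tip fibroblast replicate 1 (0.0784) or replicate 2 (0.0733).

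Between miNSC and NSC, 11 members were higher, 6 lower and 22 not called, beside 40.6% of all tested genes called (20.9% higher and 19.7% lower). The median log2 fold change was 0.26 over the members and 0.03 over all tested genes. Both cell types had low Timp1, Mmp3, Mmp10 and Mmp23 and high Mmp15. The NSC group consists of libraries at 2 passages that were more than 2-fold apart in 20 members, among them Adamts14 at 32 and 1010. With the mean of each group taken as 1 sample, 1 member was called in place of 17.

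That member was Adamts12, a protease that cuts Comp. It was at 800, 1862 and 2548 in miNSC (lowest, median and highest), against 426 and 134 in NSC and 1910, 3027 and 3668 in fibroblasts. Its log2 fold change over NSC was 2.88 ± 0.24 (SE; limma adjusted p = 1.25e-07). Every miNSC library was above both NSC libraries, and the miNSC median lay between those of NSC and fibroblasts. Adamts1 and Adamts17 were called higher without overlap, by 1.62 ± 0.22 and 2.05 ± 0.27 (SE; limma adjusted p = 2.08e-05 and 2.07e-05), and not with group means as samples (0.753 and 0.403). Timp2 and Timp3 were called lower with overlap, by −1.45 ± 0.24 and −1.58 ± 0.16 (SE; limma adjusted p = 1.99e-04 and 9.76e-07), and likewise lost the call (0.58 and 0.567). Timp1 and Timp4 differed by 0.28 and −0.77 and were not called (limma adjusted p = 0.71 and 0.471).

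Of the matrix substrates 11 of 18 were higher and 3 lower in miNSC than in NSC, with a median of 1.11. Col4a1, a basement membrane collagen chain, rose by 3.87, and Ncan fell by 1.57. Of the activation and control genes 6 were higher and 6 lower of 20. Markers of other cell types moved with this contrast. The astrocyte sum was 293 to 10099 in miNSC and 27754 to 28287 in NSC. The neuron sum was 16112 to 33214 in miNSC and 35258 and 94638 in NSC. The oligodendrocyte sum was 344 to 862 in miNSC and 764 and 1684 in NSC, with overlap. The part of these differences in the member values was not tested.

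NSC of 2.5 years set against fibroblasts of 2.5 years gave 10 members higher and 22 lower, beside 65.6% of all tested genes called (34.4% higher and 31.2% lower). Mmp15 was at 4004 and 4242 in NSC, against 50 and 35 in skin and 22 and 24 in tail-tip fibroblasts, a log2 fold change of 7.01 ± 0.13 (SE; limma adjusted p = 5.25e-17). Timp1 was at 1 and 7 in NSC, against 6318 to 6986 in these fibroblasts, a log2 fold change of −10.70 ± 0.60 (SE; limma adjusted p = 1.16e-10). Timp4 was at 554 and 821 in NSC and at 0 to 21 in these fibroblasts, and rose by 7.45 ± 0.92 (SE; limma adjusted p = 2.05e-06). Timp2 fell by 2.75 ± 0.28 (SE; limma adjusted p = 2.42e-07). Timp3, at 6032 and 8217 in NSC, lay between skin and tail-tip fibroblasts and was not called, with a log2 fold change of 0.15 ± 0.18 (SE; limma adjusted p = 0.486). As in the contrast of miNSC with all fibroblasts, which shares these fibroblast libraries, Timp1 and Timp2 were lower and Timp4 higher. Timp1 was tested only through fibroblast libraries and Timp4 only through miNSC and NSC libraries, so the filter on low values favoured their directions.

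Within the fibroblasts, tail-tip cells of 2.5 years were set against those of 1.0 year. Of the members 2 were higher and 5 lower, beside 11.0% of all tested genes called (5.63% higher and 5.41% lower). Mmp9 was at 138 and 114 at 2.5 years, against 7 and 5 at 1.0 year, a log2 fold change of 4.19 ± 0.57 (SE; limma adjusted p = 2.11e-04). Mmp9 passed the filter on low values only through these 2.5-year tail-tip libraries, so the filter favoured this direction. Macrophage and leukocyte markers moved with Mmp9, the summed value of 6 genes being 4308 and 4701 at 2.5 years and 561 and 635 at 1.0 year. The part of such cells in the Mmp9 value was not tested. Adamtsl1 fell by 1.51 ± 0.33 (SE; limma adjusted p = 0.0079), with 550 and 562 at 2.5 years, against 1567 and 1594 at 1.0 year. Without replicate 2 of either age its adjusted p was 0.0501 or 0.0523. Adamts9 and Adamts10 fell by 0.73 ± 0.17 and 0.73 ± 0.18 (SE; limma adjusted p = 0.0122 and 0.0157). Adamts9 lost the call without any 1 of the 4 libraries (0.0536 to 0.0768), and Adamts10 without any but replicate 1 of 2.5 years (0.0539 to 0.15).

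None of the 4 Timps was called between ages. Timp2 was at 10338 in both libraries at 2.5 years and at 20138 in both at 1.0 year, with a log2 fold change of −0.96 ± 0.33 (SE; limma adjusted p = 0.0747). Timp3 was at 9950 and 10893 at 2.5 years and at 15161 in both at 1.0 year (−0.54; limma adjusted p = 0.123). Since each age may come from 1 mouse, age and animal cannot be told apart. The count of 7 members called was 2 without replicate 2 of the 2.5-year cells and 4 without either replicate of the 1.0-year cells, and it was 17 with the spread estimated from these 4 libraries alone.

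Skin and tail-tip fibroblasts of 2.5 years differed in 21 members, 8 higher and 13 lower in skin, beside 26.6% of all tested genes called. Mmp1b was listed at 0 in both skin libraries, against 153 and 138 in tail tip. Adamtsl3 was at 15 and 30 in skin, against 1116 and 994 in tail tip, a log2 fold change of −5.56 ± 0.32 (SE; limma adjusted p = 1.59e-09). Adamtsl4 was at 100 and 90 in skin, against 663 and 689 in tail tip, a log2 fold change of −2.82 ± 0.55 (SE; limma adjusted p = 0.0011). Adamts14 was at 2265 and 2018 in skin, against 182 and 163 in tail tip, a rise of 3.63 ± 0.93 (SE; limma adjusted p = 0.00832). The proteoglycanases Adamts9 and Adamts4 also split. Adamts9 was at 552 and 509 in skin and 104 and 111 in tail tip, a rise of 2.29 ± 0.17, and Adamts4 was at 83 and 49 in skin and 336 and 310 in tail tip, a log2 fold change of −2.32 ± 0.20 (SE; limma adjusted p = 4e-08 and 1.56e-07).

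Timp3 was at 3953 and 3734 in skin, against 9950 and 10893 in tail tip, a log2 fold change of −1.44 ± 0.21 (SE; limma adjusted p = 8.59e-05). Timp2 was at 21805 in both skin libraries and 10338 in both tail-tip libraries, a rise of 1.08 ± 0.33 (SE; limma adjusted p = 0.0228) that was not called when any 1 of the 4 libraries was left out (0.0856 to 0.0934). Mmp9, which passed the filter on low values only through these tail-tip libraries, was at 32 and 42 in skin and 138 and 114 in tail tip. Its log2 fold change of −1.75 ± 0.57 (SE; limma adjusted p = 0.0326) was lost on leaving out any 1 library (0.0698 to 0.146), and the macrophage and leukocyte sum was 1218 and 1278 in skin, against 4308 and 4701 in tail tip. Timp1 and Timp4 were not called. Of 20 activation and control genes, 12 were lower and 1 higher in skin.

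Within miNSC, 22 members had a group mean of at least 100 in some line. Of these, 8 spanned less than 4-fold between the highest and lowest line, Adamts5 and Mmp15 among them. In 6, Mmp14, Adamts1, Adamts8, Adamts14, Mmp2 and Mmp12, the span exceeded 10-fold or the lowest line was at 0, and several of these recur in the comparisons of lines. In those comparisons the median log2 fold change over the members lay between −0.35 and 0.00, and over all tested genes between −0.06 and 0.03.

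Adding B to KF was read in both embryonic backgrounds. In ICR lines 4 members were higher and 6 lower with B, beside 13.1% of all tested genes called (6.69% higher and 6.42% lower), and in Sox2-GFP lines 7 were higher and 6 lower, beside 37.7% (19.2% higher and 18.5% lower). The count in ICR was 4 or 5 when any 1 library was left out, 4 without either BKF replicate or KF replicate 1 and 5 without KF replicate 2. The difference between the backgrounds was tested as an interaction, in which 9 members were called (23.1% of those tested), beside 32.1% of all tested genes. Of the members called, 5 had a positive and 4 a negative difference (ICR minus Sox2-GFP), beside 15.8% and 16.4% of all tested genes. The interaction gave 6 to 8 calls when any 1 library was left out and 16 with the spread estimated from these 8 libraries alone.

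Adamts1 was at 148 and 156 in ICR BKF, against 142 and 128 in ICR KF. In the Sox2-GFP lines it was at 248 and 258 in BKF, against 4756 and 4570 in KF, a log2 fold change of −4.20 ± 0.29 (SE; limma adjusted p = 4.02e-08). The Sox2-GFP KF line was alone among miNSC lines in reaching the fibroblast level of Adamts1. Its neighbour Adamts5 was at 177 and 203 there, within the range of the other lines, so the run on chromosome 16 did not move as a unit.

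Timp3 was at 3398 and 3303 in ICR BKF, against 1814 and 1586 in ICR KF, a rise of 0.98 ± 0.21 (SE; limma adjusted p = 0.00481; 0.0531 without KF replicate 2). In the Sox2-GFP lines it was at 2018 and 2118 in BKF, against 8418 and 8217 in KF, a log2 fold change of −2.01 ± 0.21 (SE; limma adjusted p = 2.85e-06). Timp2 was at 1724 and 1510 in ICR BKF, against 700 and 688 in ICR KF, a rise of 1.22 ± 0.33 (SE; limma adjusted p = 0.021) that was lost when any 1 library was left out (0.0714 to 0.133). In Sox2-GFP BKF it was at 922 and 933, against 1664 and 1692 in KF (−0.85 ± 0.33, SE; limma adjusted p = 0.0514). Both inhibitors were thus higher with B in ICR, and in Sox2-GFP Timp3 was lower. Timp1 and Timp4 were not called in either background.

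Adamts10 was at 247 and 211 in ICR BKF, against 546 and 585 in ICR KF, a log2 fold change of −1.30 ± 0.18 (SE; limma adjusted p = 1.01e-04), whereas in Sox2-GFP it was at 632 and 608 in BKF, against 408 and 408 in KF. Mmp15 was at 7994 and 8896 in Sox2-GFP BKF, against 3528 and 3552 in KF, a rise of 1.25 ± 0.15 (SE; limma adjusted p = 6.86e-06). In ICR it was at 8896 and 8896 in BKF, against 9708 and 8418 in KF. Adamts14 was at 410 and 478 in Sox2-GFP BKF, against 26 and 30 in KF, a rise of 3.94 ± 0.93 (SE; limma adjusted p = 0.00332), and at 1274 and 1286 in ICR BKF, against 1153 and 999 in KF.

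Adamts9 fell in both backgrounds. It was at 274 and 263 in ICR BKF, against 1060 and 972 in ICR KF, a log2 fold change of −1.91 ± 0.17 (SE; limma adjusted p = 1e-06). In Sox2-GFP it was at 518 and 628 in BKF, against 1464 and 1476 in KF, a log2 fold change of −1.36 ± 0.17 (SE; limma adjusted p = 1.51e-05). The difference between the backgrounds was not called for this gene. Markers of other cell types moved with both contrasts. The astrocyte sum was 2303 and 2378 in ICR BKF, against 1384 and 1505 in ICR KF, and 554 and 584 in Sox2-GFP BKF, against 9854 and 10099 in Sox2-GFP KF. The fibroblast sum was 163 and 207 in ICR BKF, against 858 and 941 in ICR KF, and 84 and 170 in Sox2-GFP BKF, against 875 and 967 in Sox2-GFP KF. The smooth muscle sum was 711 and 726 in ICR BKF, against 61 and 71 in ICR KF, and 114 and 127 in Sox2-GFP BKF, against 368 and 388 in Sox2-GFP KF. The part of these markers in the member values was not tested, and each line may be 1 colony, so cocktail and colony cannot be told apart.

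**Figure D5:**
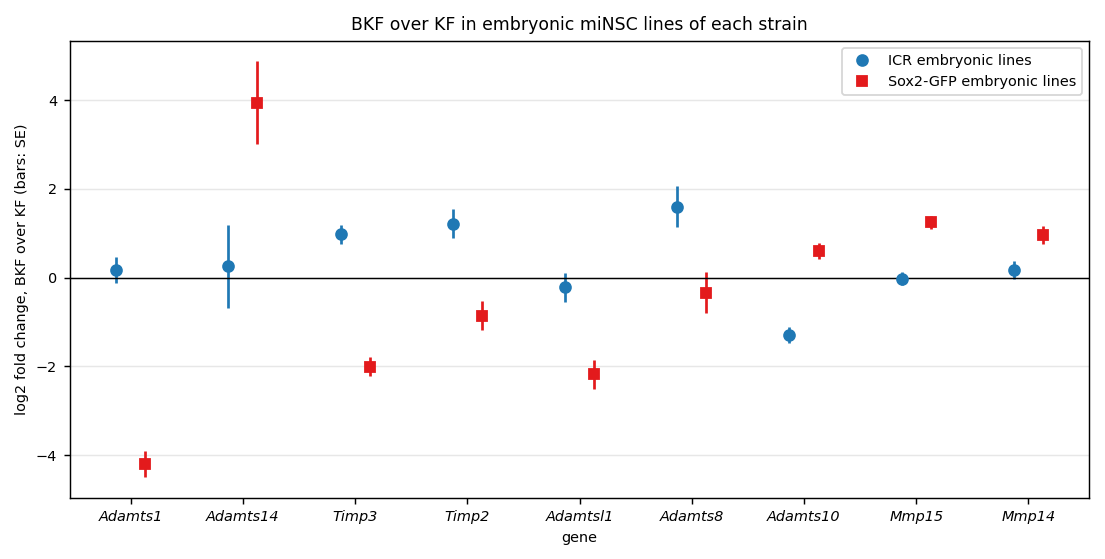
Log2 fold changes of BKF over KF on log2(value + 1), with SE bars, in ICR (circles) and Sox2-GFP (squares) embryonic lines, for the 9 members whose change was called to differ between the backgrounds. Adamts1 lies at −4.20 in Sox2-GFP and near 0 in ICR, and Timp3 at −2.01 in Sox2-GFP and 0.98 in ICR.

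Adding M to KF in Sox2-GFP lines left 6 members higher and 7 lower, beside 39.1% of all tested genes called (19.9% higher and 19.2% lower). This comparison shares its KF libraries with the comparison for B. Mmp14 was at 32 and 28 in KMF, against 308 and 234 in KF, a log2 fold change of −3.12 ± 0.21 (SE; limma adjusted p = 1.43e-08). Timp3 was at 1122 and 1091 in KMF, against 8418 and 8217 in KF, a log2 fold change of −2.91 ± 0.21 (SE; limma adjusted p = 4.75e-08). Adamts1 was at 900 and 919 in KMF, against 4756 and 4570 in KF, a log2 fold change of −2.36 ± 0.29 (SE; limma adjusted p = 9.91e-06). The membrane protease, the inhibitor and the proteoglycanase were thus all lower in KMF than in KF. Against the same KF line, which had the highest Timp3 and Adamts1 means among miNSC lines, both of these genes were also lower in BKF, whereas Mmp14 was higher in BKF. Each line may be 1 colony, so cocktail and colony cannot be told apart. Mmp15 was at 8658 in both KMF libraries and rose by 1.29 ± 0.15, and Adamtsl3 rose by 2.83 ± 0.32 (SE; limma adjusted p = 4.23e-06 and 4.62e-06). Adamts14 was at 268 and 232 in KMF, against 26 and 30 in KF, and its rise of 3.11 ± 0.93 (SE; limma adjusted p = 0.0143) was lost when any 1 library was left out (0.0523 to 0.0691). The count of 13 became 6 without KF replicate 1 and 21 with the spread estimated from these 4 libraries alone. Timp1, Timp2 and Timp4 were not called. The astrocyte sum was 1350 and 1456 in KMF, against 9854 and 10099 in KF, the fibroblast sum 499 and 502 in KMF, against 875 and 967 in KF, and the smooth muscle sum 86 and 87 in KMF, against 368 and 388 in KF. Their part in these values was not tested.

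Over BKF and KF, ICR lines had 7 members higher and 10 lower than Sox2-GFP lines, beside 38.4% of all tested genes called (19.3% higher and 19.1% lower). Mmp2 was at 30 to 60 in the ICR libraries, against 265 to 428 in the Sox2-GFP libraries, a log2 fold change of −2.93 ± 0.38 (SE; limma adjusted p = 1.84e-05). Mmp14 was at 670 to 810 in ICR, against 234 to 534 in Sox2-GFP, a rise of 1.00 ± 0.15 (SE; limma adjusted p = 5.47e-05). Adamts14 was at 999 to 1286 in ICR, against 26 to 478 in Sox2-GFP, a rise of 3.37 ± 0.66 (SE; limma adjusted p = 7.91e-04). So the gelatinase and its activator stood in opposite directions between these lines. Adamts19 fell by 1.52 ± 0.24 and Adamts4 rose by 0.78 ± 0.14 (SE; limma adjusted p = 1.05e-04 and 3.53e-04). Timp3 was called lower by −0.80 ± 0.15 (SE; limma adjusted p = 5.99e-04) with overlap, and the other Timps were not called. Adamts1 was at 128 to 156 in ICR, a log2 fold change of −2.92 ± 0.21 (SE; limma adjusted p = 2.81e-08). In Sox2-GFP it was at 4756 and 4570 in KF but at 248 and 258 in BKF. Adamts14 was at 26 and 30 in that KF line. Each line may be 1 colony, so strain and colony cannot be told apart.

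The origin of the cells was read over BKF and KMF of Sox2-GFP. Tail-tip lines had 7 members higher and 7 lower than embryonic lines, beside 33.0% of all tested genes called (15.8% higher and 17.2% lower). The inhibitors Timp2 and Timp3 were the clearest. Timp2 was at 404 and 402 in tail-tip BKF and 402 and 425 in tail-tip KMF, against 922 and 933 in embryonic BKF and 1308 and 1346 in embryonic KMF, a log2 fold change of −1.44 ± 0.23 (SE; limma adjusted p = 1.63e-04). Timp3 was at 2784 and 2274 in tail-tip BKF and 3822 and 3858 in tail-tip KMF, against 2018 and 2118 in embryonic BKF and 1122 and 1091 in embryonic KMF, a rise of 1.04 ± 0.15 (SE; limma adjusted p = 6.27e-05). Within both cocktails the tail-tip libraries lay on the same side of the embryonic ones for each gene. In the other Sox2-GFP lines of these origins, Timp2 was at 896 to 1326 in tail-tip 4F and at 1664 and 1692 in embryonic KF. Timp3 was at 819 and 1580 in tail-tip 4F at passage 8, 2234 and 2877 at passage 18 and 8418 and 8217 in embryonic KF, so its order did not hold there. Donor age differed with origin and each line may be 1 colony, so origin, age and colony cannot be told apart. Timp1 was called at 1.53 ± 0.49 (SE; limma adjusted p = 0.0251) with overlap and at values of 22 or less, and the call was lost without any of 5 libraries (0.0555 to 0.134). Timp4 was not called.

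The tail-tip 4F line at passage 18 had 8 members higher and 9 lower than at passage 8, beside 35.1% of all tested genes called (17.5% higher and 17.6% lower). Adamts8, an enzyme with aggrecanase activity, was at 86 and 47 at passage 18, against 664 and 524 at passage 8, a log2 fold change of −3.19 ± 0.46 (SE; limma adjusted p = 6.95e-05). No library outside passage 8 exceeded 86. Adamts17 was at 44 and 38 at passage 18, against 231 and 201 at passage 8, a log2 fold change of −2.37 ± 0.37 (SE; limma adjusted p = 1.39e-04). Adamts14 was at 164 and 82 at passage 18, against 1516 and 925 at passage 8, a log2 fold change of −3.34 ± 0.93 (SE; limma adjusted p = 0.0106; 0.0779 without passage 8 replicate 1 and 0.0915 without passage 18 replicate 2). Pcolce, the enhancer of procollagen C-proteinase, was at 58 to 66 at passage 18, against 420 to 784 at passage 8, a log2 fold change of −3.19 ± 0.30 (SE; limma adjusted p = 1.55e-06).

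In the other direction, Adamts9 was at 862 and 1087 at passage 18, against 316 and 336 at passage 8, a rise of 1.57 ± 0.17 (SE; limma adjusted p = 6.07e-06). Adamts4 rose by 1.22 ± 0.20 (SE; limma adjusted p = 1.77e-04). Timp3 was at 2234 and 2877 at passage 18, against 819 and 1580 at passage 8, a rise of 1.16 ± 0.21 (SE; limma adjusted p = 5.77e-04). Mmp15 was at 3428 and 3088 at passage 18, against 9708 and 6861 at passage 8, a log2 fold change of −1.33 ± 0.15 (SE; limma adjusted p = 5.98e-06). Mmp14 rose by 1.07 ± 0.21 (SE; limma adjusted p = 7.91e-04), so the membrane-type pair moved in opposite directions. With the spread estimated from these 4 libraries alone 8 members were called, and Timp3 (0.176), Mmp14 (0.122), Mmp15 (0.0589) and Adamts14 (0.054) were not. The astrocyte sum was 3320 and 7627 at passage 18, against 293 and 336 at passage 8, and its part in these values was not tested. Timp1, Timp2 and Timp4 were not called.

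The ear 4F line was set against the tail-tip 4F line over both passages, and 5 members were higher and 13 lower, beside 28.6% of all tested genes called (14.1% higher and 14.5% lower). Mmp14 was listed at 0 in both ear libraries, against 274 and 453 at passage 8 and 738 and 741 at passage 18. No other library of the series was at 0 in this gene, the lowest being 28 in the Sox2-GFP KMF line. Mmp14 lies on chromosome 14 from 54431612 to 54445364. The 6 nearest genes on each side that the expression table holds were read, and annotated genes absent from it were not. Of these, the 7 with a mean of at least 100 in the tail-tip line had a ratio of ear to tail tip between 0.561 and 1.26. None of these 7 neighbours was near 0. Mrpl52, next to Mmp14, was at 317 to 330 in ear and at 476 to 626 in tail tip.

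Mmp12, Adamts16 and Adamtsl4 were also listed at 0 in both ear libraries, the highest tail-tip values being 176, 90 and 6. Mmp2, whose proenzyme Mmp14 activates, was at 38 and 40 in ear, against 124 to 296 in tail tip, a log2 fold change of −2.26 ± 0.46 (SE; limma adjusted p = 0.00163). Timp2, which links the proenzyme to Mmp14, was at 276 and 301 in ear, against 896 to 1326 in tail tip, a log2 fold change of −1.90 ± 0.28 (SE; limma adjusted p = 1.12e-04). Mmp14, Mmp2 and Timp2 were each lower in both ear libraries than in all tail-tip 4F libraries. Timp1 was called lower by −2.54 ± 0.60 (SE; limma adjusted p = 0.00478; 0.127 without ear replicate 1), and Timp3 and Timp4 were not called. Adamts10 rose by 0.81 ± 0.16 (SE; limma adjusted p = 0.00109). Adamts8 was at 27 and 24 in ear, against 664 and 524 at passage 8 and 86 and 47 at passage 18. Its log2 fold change was −2.88 ± 0.40 against both passages together (SE; limma adjusted p = 5.11e-05), −4.48 against passage 8 alone (2.84e-06) and −1.29 against passage 18 alone (0.0396). Adamts9 was at 1336 and 1299 in ear, above every tail-tip 4F library, and was called against both passages together (1.23 ± 0.15, SE; limma adjusted p = 1.51e-05) but not against passage 18 alone (0.0583). The ear and tail-tip cells may each be 1 colony, so tissue and colony cannot be told apart.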

How the data were processed

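RNA was measured by sequencing of oligo(dT)-selected mRNA, fragmented and primed with random hexamers, per the labels' protocols. The submitters' processing notes name RSEM, Bowtie2 2.0 and the build mm10, with no role given. The deposited values are whole-number normalised scores, and how the authors normalised them is not given in the sources used here. They are neither read counts nor known to be per length, so no count model was used.

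Values were taken as log2(value + 1), and limma 3.58.1 (R 4.3.3) with an intensity trend was fitted in one model over the 14 groups for the 16275 genes with a mean of at least 10. Comparisons were contrasts of equally weighted group means, with Benjamini-Hochberg adjustment over all tested genes and a threshold of 0.05. Fold changes are given for members past the threshold whose libraries did not overlap and whose mean reached 100 in some group of the comparison, up to the 12 largest, and for Timps always. A member at 0 on a whole side is given as listed at 0. Of the other lists, the 4 genes with the smallest adjusted p may be named. The members, lists and rules were chosen with earlier results of these data known, and 1 neural stem and progenitor marker of the list is not reported here. Replicate numbers did not pair libraries: over 78 pairs of groups, the correlation of same-numbered deviations was −0.055 to 0.071, under the limit of 0.1. The procedure was tested on simulated data. Promoters were read with Python 3.11.15 and pandas 2.3.3, and figures drawn with matplotlib 3.10.9. Alternatives were another pseudocount, other filters, quantile normalisation, a robust prior, a replicate block, smaller fits, group means as samples and leaving out libraries or lines.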

Additional observations from a re-analysis of the deposited data

Results flagged for a closer look

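In 9 members the effect of B (BKF minus KF, log2) was called to differ between the ICR and the Sox2-GFP embryonic lines. Each line may be 1 colony, so cocktail, background and colony cannot be told apart. By this interaction test in limma the 9 members were 23.1% of the 39 tested, below the 32.1% of all genes called. The count was 6 to 8 on leaving out 1 library and 16 with only these 4 groups in the fit. The ICR effect minus the Sox2-GFP effect was 4.37 ± 0.41 for Adamts1 (SE; limma adjusted p = 9.87e-07), 2.99 ± 0.30 for Timp3 (2.02e-06), 2.07 ± 0.46 for Timp2 (0.00276), 1.96 ± 0.47 for Adamtsl1 (0.00419) and 1.93 ± 0.65 for Adamts8 (0.0319). It was −1.91 ± 0.26 for Adamts10 (3.43e-05), −1.28 ± 0.21 for Mmp15 (1.97e-04), −3.69 ± 1.32 for Adamts14 (0.043) and −0.79 ± 0.29 for Mmp14 (0.0498). Adamts14 and Adamts8 were not called when any 1 of the 8 libraries was left out (0.0801 to 0.0998 and 0.0568 to 0.0835), and Mmp14 lost its call when any but the first Sox2-GFP KF library was left out (0.067 to 0.196).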

How the results depend on the processing

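Of 128 named pairs of a member and a comparison, none changed direction. Under alternatives other than leaving out a library, 987 of 1012 values stayed on their side of the threshold and 25 lost the call. On leaving out 1 library 1032 of 1118 stayed and 86 lost it. A lone remaining library is then assumed to vary like the other groups. Where a count of members called moved by over 1.5 times, the cause was not tested. With group means as samples, miNSC against NSC gave 1 call in place of 17. With only the groups compared in the fit, there were 17 calls for fibroblast age in place of 7, 16 for the interaction of B and background in place of 9, 21 for KMF against KF in place of 13 and 8 for passage 18 against 8 in place of 17. With the replicate block there were 11 calls for fibroblast age, 17 for the interaction and 20 for KMF against KF, but the numbers do not pair the libraries, and the NSC comparisons had no paired fit because their numbers mark passages. On leaving out 1 library the calls ran from 2 to 6 for age, 4 to 5 for BKF against KF in ICR (10 with all), 6 to 8 for the interaction, 6 to 10 for KMF against KF and 12 to 19 for ear against tail tip (18 with all). The lines left out after the data were seen, ear and Sox2-GFP KF, left 35 calls each against fibroblasts, as with all lines. Quantile normalisation moved no median over all genes by more than 0.044 (log2, −0.0440). Depth is unknown and sets no limit that can be stated.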
